A study of Mus musculus with 3 samples.

Results

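Cells take up, exchange and release amino acids through membrane carriers of the solute carrier (Slc) families, and 5 of these families were followed here in astrocytes grown from mouse embryonic stem cells. The genes were chosen by name alone: every gene of the families Slc3, Slc7, Slc36, Slc38 and Slc43 with a probe set that the platform annotation ties to 1 gene. That gave 33 genes of 18194 on the arrays, read by 65 probe sets, and the other 2 genes that the RefSeq table lists in these families, Slc38a8 and Slc38a11, were not analysed here.

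The 3 samples form 1 group and are labelled wild type, so the design holds no contrast. Embryonic stem cells, whose line and strain are not given in the labels, were cultured as embryoid bodies for 4 days and then under selection in ITSFn media for 5 to 7 days. The resulting neural precursors were kept in FGF2 and a factor written EGF2, and 18 passages after the embryoid bodies these factors were withdrawn and 5% fetal bovine serum was given for 5 days. Total RNA was labelled with biotin and hybridised to Mouse Genome 430 2.0 arrays, 1 per sample. On these arrays a probe set is a group of short probes, mostly annotated to 1 gene and in some cases to several. Whether the 3 samples are separate cultures is not stated, so p-values cover the spread of these samples alone, and that spread may be technical.

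Slc3 genes encode heavy chains, single-span glycoproteins that bring a light chain of the Slc7 family to the cell surface, where the light chain does the transport. Of the other Slc7 proteins, Slc7a1, Slc7a2 and Slc7a3 carry arginine and lysine without a heavy chain. Their relatives Slc7a4 and Slc7a14 are grouped with them here as cationic carriers. Slc36 proteins move small amino acids together with protons, and Slc38 proteins move glutamine and other neutral amino acids, mostly with sodium. Slc43a1 and Slc43a2 let large neutral amino acids pass down their gradient. Astrocytes are known for releasing glutamine to neurons through system N carriers of the Slc38 family and for taking up cystine, for glutathione, in exchange for glutamate through the light chain Slc7a11.

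A level is the mean log2 intensity ± SD of a gene's brightest probe set (n = 3). Background was read from 77 chemosensory receptor genes (smell, pheromone, trace amine and taste), and the limit, the 95th percentile of their signal on an array, was 3.99, 4.10 and 4.07 log2 units on replicates 1, 2 and 3. A gene was called above background when its distance from the limit passed a one-sided limma test (adjusted p below 0.05 over all 18117 genes tested). Distances are in log2 units from the limit of the same array. A gene that did not pass is not shown to be absent, and since probe sets differ in brightness, the level of 1 gene says nothing about that of another. In RNA from whole cultures, fewer cells with a transcript and less transcript per cell cannot be told apart.

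Of the 33 genes, 18 were above background, while 58.3% of all genes tested were, so the transporters as a whole lay near the share of the array. The median distance was 0.68 over the 33 genes and 1.76 over all genes tested. The same number, 18, read above the limit on each of the 3 arrays, a rule that 59.8% of all genes met, and 10 genes read below it on each. The divide ran within every family but the remaining Slc38 genes: 1 of 2 heavy chains, 3 of 10 light chains, 3 of 5 cationic carriers, 3 of 4 proton-coupled carriers, 2 of 3 system A carriers, 1 of 2 system N carriers, all 4 other Slc38 genes measured and 1 of 3 Slc43 genes were above background.

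**Figure D1:**
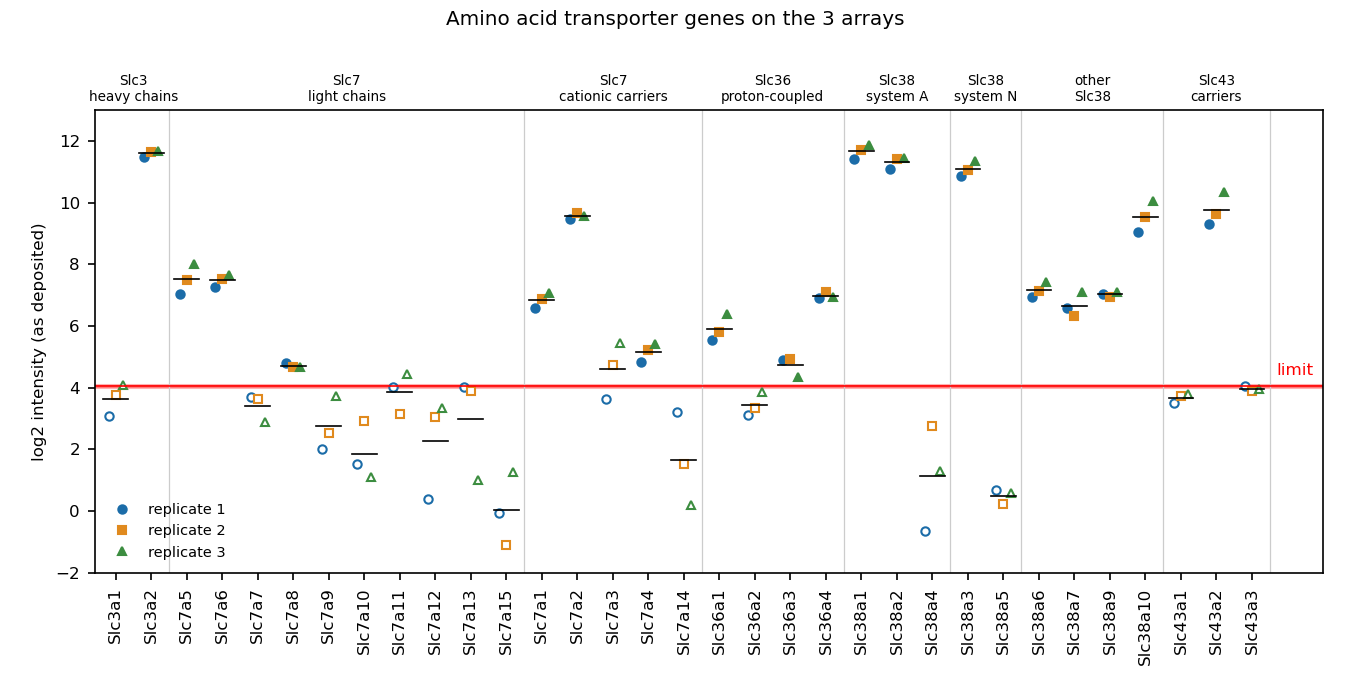
Log2 intensity (y axis) of the 33 transporter genes (x axis, by family) on replicates 1, 2 and 3, with a bar at the mean, filled symbols for genes above background and a red line and band at the background limit of the arrays. The 18 genes above background sit above the line on all 3 arrays, and the symbols of Slc7a3, Slc7a11, Slc3a1 and Slc43a3 lie on both sides of it. Those of Slc7a13 lie below the line, with replicate 1 inside the band.

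The labelled cell type was checked on marker genes. All 8 astrocyte markers were above background, among them the filament gene Gfap at 12.63 ± 0.12 and the water channel gene Aqp4 at 11.87 ± 0.10, and so were all 5 neural precursor markers. Of neuronal markers 2 of 7 passed (Rbfox3 and Syt1), and of oligodendrocyte lineage markers 2 of 5 (Olig1 and Sox10). No marker of microglia and blood (0 of 5), endothelium (0 of 4), pluripotent cells (0 of 4) or kidney and gut epithelium (0 of 6) was called by limma, and none of these had an unadjusted p below 0.05. Of 3 liver genes 2 passed close to the limit, Alb at a distance of 0.91 and Apoa2 at 0.79. The oligodendrocyte lineage marker Olig1 passed at 7.59 and Sox10 at 0.58, and the neuronal markers Rbfox3 and Syt1 passed at 2.61 and 3.19, so marker genes of other cell types passed both near the limit and well above it. Signal over all genes called was lowest on replicate 1 and highest on replicate 3, with median deviations from a gene's own mean of -0.18, 0.02 and 0.16 log2 units.

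The heavy chain of most surface exchangers was far above background. Slc3a2 (4F2hc or CD98), the partner of the system L, y+L, cystine and small neutral amino acid light chains, read 11.49, 11.66 and 11.69 on replicates 1, 2 and 3. These values lay close together, and the distance was 7.56 ± 0.12 (SE, adjusted p = 3.8e-05, limma). Slc3a1 (rBAT), the heavy chain that pairs with Slc7a9 in kidney and intestine, read 3.09, 3.76 and 4.10, on the lower side of the limit on replicates 1 and 2 and just above it on replicate 3. It did not pass, at a distance of -0.41 with a 95% interval from -1.09 to 0.28.

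Among the 10 light chains, Slc7a5, Slc7a6 and Slc7a8 were above background, and the light chains for cystine (Slc7a11) and for small neutral amino acids and D-serine (Slc7a10) were not. Slc7a5 (LAT1), which exchanges large neutral amino acids such as leucine, read 7.06, 7.50 and 8.03 on replicates 1, 2 and 3, with replicate 3 highest and replicate 1 lowest. Its distance was 3.47 ± 0.23 (SE, adjusted p = 0.000267, limma). Slc7a6 (y+LAT2), which exchanges cationic for neutral amino acids, read 7.28, 7.54 and 7.66 and was above background on both of its probe sets, at a distance of 3.44 ± 0.14 (SE, adjusted p = 7.2e-05, limma). Both therefore lay far from the limit on every array.

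Slc7a8 (LAT2), a second large neutral amino acid exchanger, read 4.81, 4.66 and 4.68, close together and only 0.66 ± 0.13 above the limit (SE, adjusted p = 0.00919, limma). It no longer passed without replicate 1 (adjusted p = 0.0509, limma), without replicate 2 (0.0561) or with the limit at the 99th percentile (0.268), and over all 13 alternatives its distance ranged from 0.29 to 0.91. Its distance was no larger than those at which the liver genes Alb and Apoa2 passed.

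Slc7a11 (xCT), the cystine and glutamate exchanger, was not above background. Its brighter probe set read 4.02, 3.14 and 4.45 on replicates 1, 2 and 3, above the limit on replicates 1 and 3 and below it on replicate 2. The second probe set read 3.92, 4.28 and 2.07, above the limit on replicate 2 alone, so the arrays on which the 2 probe sets read high were not the same. The distance was -0.19 with a 95% interval from -1.13 to 0.75 (adjusted p = 1, limma), an interval with values on both sides of the limit. It was above 0 but still not called without replicate 2 (0.20), without replicate 3 (0.057) and with the limit at the 90th percentile (0.067).

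Slc7a10 (Asc-1), an exchanger of small neutral amino acids and D-serine, read 1.52, 2.94 and 1.09, below the limit on every array, at a distance of -2.20 with an interval from -3.44 to -0.97. Slc7a7 (y+LAT1), the y+L light chain of epithelia and macrophages, read 3.71, 3.64 and 2.90 on its brighter probe set, also below the limit on every array. The light chains of Slc3a1 were at background like their partner. Slc7a9 (b0,+AT) read 2.00, 2.52 and 3.72. The brighter probe set of Slc7a13 (AGT1), a kidney light chain, read 4.03, 3.89 and 1.0, just above the limit on replicate 1 and far below it on replicate 3. Its second probe set read 2.85, 2.59 and 3.08, with no such drop on replicate 3. The remaining light chains did not pass either: Slc7a12 (Asc-2) read 0.40, 3.06 and 3.35, and Slc7a15 (ArpAT) read -0.06, -1.12 and 1.25.

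**Figure D2:**
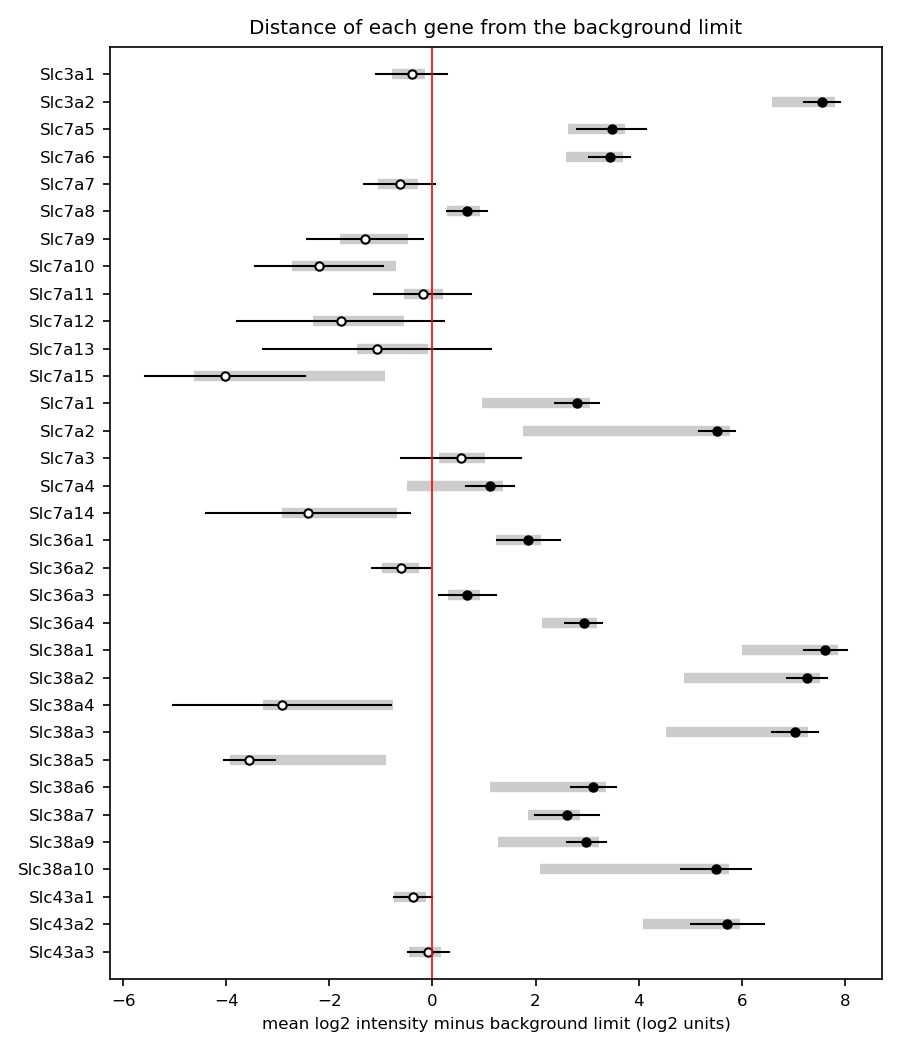
Distance from the background limit in log2 units (x axis) for each of the 33 genes (y axis), with the mean of 3 arrays as a circle (filled where above background), its 95% limma interval as a black line and the range over 13 alternative settings as a grey bar. Slc7a11 and Slc43a3 have intervals and grey bars on both sides of 0, and Slc7a4 is the gene above background whose grey bar crosses 0, at -0.50.

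The promoter window of Slc7a11 is shown because the gene was not called while the genes of factors known to act on it were. Activating transcription factor 4, encoded by Atf4, is known to act on Slc7a11 through amino acid response elements, and the core TGATGNAA was searched on both strands of the RefSeq promoter windows (250 bases before to 50 after the start, GRCm38.p6), of which 23 of the 33 genes had 1 or more. The window of Slc7a11 held 2 matches, 1 on each strand, from -66 to -59 and from -47 to -40 relative to the start. Slc7a7 was the other gene of these 23 with a match. Of all genes with a window 4.51% had a match, and of all windows 3.97%. The bases before the start (minus strand, chr3:50443614-50443863, 250 bases) follow 5′ to 3′, with the matches in capitals. A match is a description of these letters and not a measured site.
Slc7a11: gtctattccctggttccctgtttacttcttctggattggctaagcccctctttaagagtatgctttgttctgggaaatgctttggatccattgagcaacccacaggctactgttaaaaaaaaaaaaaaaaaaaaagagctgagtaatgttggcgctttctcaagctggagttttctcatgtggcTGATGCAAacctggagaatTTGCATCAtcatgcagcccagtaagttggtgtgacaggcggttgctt

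Genes of the response to amino acid shortage were above background on all 16 measured of the 17 listed. Atf4 read 9.66 ± 0.02 and Eif2ak4, the kinase that senses uncharged transfer RNA, 6.29 ± 0.55. The stress factor gene Ddit3 was at 7.82 ± 0.04, the asparagine synthetase gene Asns at 8.90 ± 0.08, and Trib3, an inhibitor of the response, at 4.57 ± 0.08, only 0.51 above the limit. The median distance of the list was 4.12, against 1.76 over all genes tested. When the probe sets of each gene were replaced by their median, 13 genes of this list passed. The share over all genes tested fell as well, from 58.3% to 50.5%.

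All 12 genes listed for cystine, glutathione and oxidative stress were above background as well, at a median distance of 5.30. Nfe2l2 (NRF2), the oxidative stress factor that also acts on Slc7a11, was at 10.54 ± 0.25, and its inhibitor Keap1 at 8.31 ± 0.43. The glutathione synthesis genes Gclc, Gclm and Gss were at 9.80 ± 0.14, 8.91 ± 0.16 and 6.87 ± 0.35. With the median of their probe sets 11 of the 12 passed, against 50.5% of all genes tested. The list also holds oxidative stress genes that do not handle cystine, such as Hmox1 and Nqo1.

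The cationic amino acid carriers were split. Slc7a2 (CAT-2), an arginine and lysine carrier, read 9.48, 9.68 and 9.56 on replicates 1, 2 and 3, nearly alike, at a distance of 5.52 ± 0.12 (SE, adjusted p = 3.8e-05, limma). With the median of its probe sets on each array the distance was 1.76. Of its 4 probe sets 3 were above background, and the fourth read 5.17 and 5.25 on replicates 1 and 2 but 0.18 on replicate 3. Slc7a1 (CAT-1), the widely expressed arginine carrier, read 6.60, 6.88 and 7.09 and passed on 2 of 3 probe sets, at a distance of 2.80 ± 0.15 (SE), or 0.96 with their median. Slc7a4, a relative without a well-defined substrate, read 4.84, 5.23 and 5.42 and was called at a distance of 1.11 ± 0.16 (SE), but on 1 of its 3 probe sets. With the median of its probe sets it was at -0.50 and not above background.

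Slc7a3 (CAT-3), known from neurons, read 3.62, 4.72 and 5.47, below the limit on replicate 1 and above it on replicates 2 and 3. It did not pass (distance 0.55, adjusted p = 0.205, limma), and it passed without replicate 1, at a distance of 1.01 (adjusted p = 0.0413, limma). Replicate 1 alone thus decided this call. Slc7a14, a relative found in lysosomes, read 3.20, 1.52 and 0.20 on its brighter probe set, below the limit on every array.

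Among the glutamine carriers, Slc38a1, Slc38a2 and Slc38a3 were far above the limit, and Slc38a4 and Slc38a5 were below it on every array. Slc38a1 (SNAT1), a system A carrier that takes up glutamine with sodium, read 11.44, 11.71 and 11.89 on replicates 1, 2 and 3, at a distance of 7.62 ± 0.14 (SE, adjusted p = 3.8e-05, limma). Slc38a2 (SNAT2), the system A carrier that adapts to amino acid shortage, read 11.11, 11.42 and 11.46 and was above background on all 3 of its probe sets, at a distance of 7.27 ± 0.13 (SE, adjusted p = 3.8e-05, limma). On the brightest probe set of both genes, replicate 1 was lowest. Slc38a4 (SNAT4), the system A carrier of liver and placenta, read -0.65, 2.75 and 1.31, below the limit on every array, and its second probe set was not above background either.

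System N was represented by 1 of its 2 genes. Slc38a3 (SNAT3), the system N carrier associated with astrocytes, read 10.87, 11.05 and 11.35 and passed on both probe sets, at a distance of 7.04 ± 0.15 (SE, adjusted p = 3.8e-05, limma). With the median of its probe sets the distance was 4.53, the lowest value over the 13 alternatives. Slc38a5 (SNAT5), the other system N carrier, read 0.67, 0.24 and 0.58 on its only probe set, close together and below the limit on each array. The distance of Slc38a5 was -3.56 with a 95% interval from -4.05 to -3.06.

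The genes that make and use glutamine were above background in all 8 cases measured of the 10 listed, at a median distance of 4.90. Glul, the glutamine synthetase of astrocytes, was at 10.91 ± 0.39, and Glud1, which breaks glutamate down in mitochondria, at 11.44 ± 0.21. The transaminase genes Got1, Got2 and Gpt were at 7.80 ± 0.18, 9.72 ± 0.26 and 5.85 ± 0.28. When the probe sets of each gene were replaced by their median, 6 of these genes passed, against 50.5% of all genes tested.

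The promoter windows of Slc38a2 and Slc38a5 are shown as a glutamine carrier far above the limit and 1 at background, with each CpG dinucleotide in capitals (GRCm38.p6, 5′ to 3′). That of Slc38a2 (minus strand, chr15:96699728-96699978, 251 bases) held 31 CpG, and that of Slc38a5 (plus strand, chrX:8271131-8271380, 250 bases) held 8.
Slc38a2: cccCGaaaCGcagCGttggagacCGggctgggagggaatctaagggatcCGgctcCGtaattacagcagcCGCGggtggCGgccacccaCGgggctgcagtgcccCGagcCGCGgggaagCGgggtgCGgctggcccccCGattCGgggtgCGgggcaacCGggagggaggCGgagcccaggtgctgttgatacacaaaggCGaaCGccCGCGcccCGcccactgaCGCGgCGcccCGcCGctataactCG
Slc38a5: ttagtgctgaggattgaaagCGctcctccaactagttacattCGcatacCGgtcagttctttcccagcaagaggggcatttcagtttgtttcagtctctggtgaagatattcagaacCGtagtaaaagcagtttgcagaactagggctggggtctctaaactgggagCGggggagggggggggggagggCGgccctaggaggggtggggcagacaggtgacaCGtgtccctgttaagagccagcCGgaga

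In the full windows of 300 bases, Slc38a2 had 41 CpG and Slc38a5 had 10. Over the 13 transporter genes above background with a window, the count ran from 1 in Slc36a3 to 42 in Slc7a6, with a median of 20, taking the window with most CpG where a gene had several. Over the 10 not above background it ran from 4 in Slc7a11 to 26 in Slc43a1, with a median of 9.5. The ranges overlapped widely, and Slc43a1 and Slc7a10 had over 20 CpG without being above background. Within the Slc38 family, Slc38a7 was above background with 10 CpG, as many as Slc38a5. Among all genes with a window, the medians were 23 for those above background and 7 for the rest, so the medians of the transporters differed in the same direction as those of all genes.

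**Figure D3:**
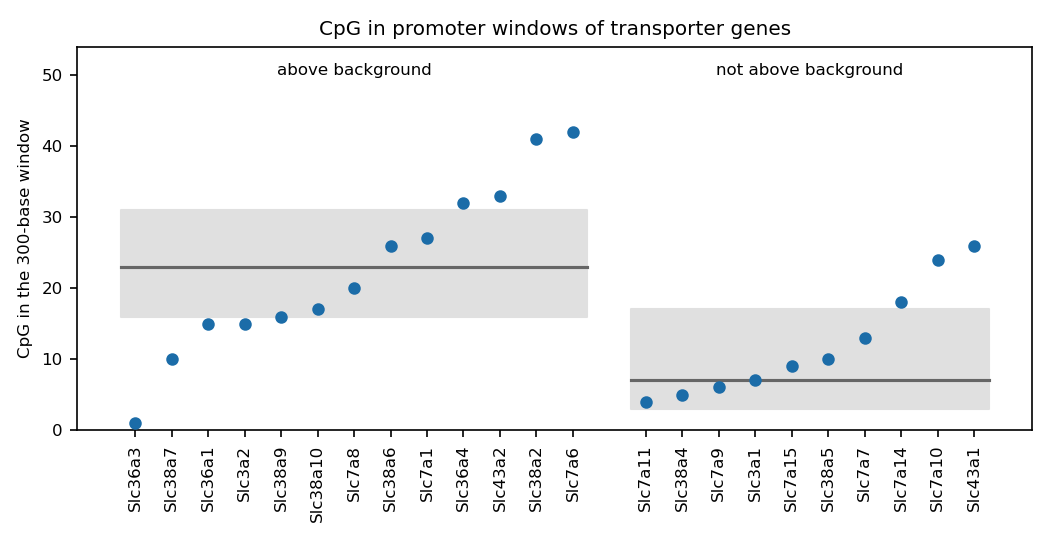
Number of CpG dinucleotides (y axis) in the 300-base promoter window of each of 23 transporter genes (x axis), for genes above background and not, with the median (grey line) and the quartiles (grey band) of all genes of the same call. Slc36a3, above background close to the limit, has 1 CpG, and Slc43a1 and Slc7a10, not above background, have 26 and 24.

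The other Slc38 genes, several of which act on lysosomes, were above background without exception among the 4 measured. Slc38a9, the lysosomal arginine sensor that signals to the growth regulator mTORC1, read 7.05, 6.95 and 7.12 on its brightest probe set, nearly alike. All 7 of its probe sets passed, the dimmest narrowly (adjusted p = 0.0483, limma). Its distance was 2.99 ± 0.13 (SE, adjusted p = 8.8e-05, limma), or 1.26 with their median. Slc38a7 (SNAT7), which exports glutamine and asparagine from lysosomes, was at 6.67 ± 0.40, with replicate 2 lowest, at 6.32. Slc38a6 was at 7.17 ± 0.25 on its brighter probe set, while its second probe set read 2.35, 3.02 and 3.98 and was not above background. Its distance of 3.12 became 1.12 with their median. Slc38a10, a family member of the brain among other tissues, read 9.06, 9.53 and 10.07, with replicate 3 highest, at a distance of 5.50 ± 0.23 (SE), or 2.10 with the median of its probe sets.

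Lysosomal carriers of the Slc36 family were also found. Slc36a1 (PAT1), which moves small amino acids with protons out of lysosomes, read 5.54, 5.82 and 6.38 on replicates 1, 2 and 3, with replicate 3 highest, at a distance of 1.86 ± 0.21 (SE, adjusted p = 0.00142, limma), or 1.23 with 16 added to every intensity. Slc36a4 (PAT4), a carrier of proline and tryptophan, read 6.90, 7.12 and 6.95, at a distance of 2.94 ± 0.12 (SE). Slc36a2 (PAT2) was at 3.44 ± 0.38 and did not pass. Slc36a3 (PAT3), known from testis, read 4.91, 4.92 and 4.36, with replicate 3 lowest. It passed narrowly (distance 0.68, adjusted p = 0.0252, limma) and did not without replicate 1 (adjusted p = 0.101), without replicate 2 (0.116) or with the limit at the 99th percentile (0.361).

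The window of Slc36a1 is shown for the lysosomal members. TFEB, a regulator of lysosomal genes, binds a motif with the core GTCACGTG, which contains the E-box CACGTG. The window held 2 matches on the minus strand of the motif, from -31 to -24 and from -3 to 5, and no other gene of the 23 with a window held one. Of all genes with a window 2.55% had a match, and of all windows 2.25%. The stretch (GRCm38.p6, plus strand, chr11:55204090-55204344, 255 bases, 5′ to 3′) has the matches in capitals. No binding was measured here, and no match in the other windows says only that these letters are not in them.
Slc36a1: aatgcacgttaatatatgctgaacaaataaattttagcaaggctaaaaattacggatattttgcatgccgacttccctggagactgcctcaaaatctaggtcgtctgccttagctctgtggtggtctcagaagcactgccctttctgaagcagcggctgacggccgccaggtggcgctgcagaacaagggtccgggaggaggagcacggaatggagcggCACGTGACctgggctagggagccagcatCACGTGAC

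The machinery that senses amino acids at the lysosome was above background on all 23 genes measured of 24 listed, at a median distance of 4.39. The kinase gene Mtor was at 8.37 ± 0.37 and those of its partners Rptor and Mlst8 at 7.43 ± 0.50 and 6.48 ± 0.23. The Rag GTPase genes Rraga and Rragc were at 9.92 ± 0.26 and 9.48 ± 0.25. When the probe sets of each gene were replaced by their median, 20 genes of this list passed, against 50.5% of all genes tested.

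Among the Slc43 genes, Slc43a2 (LAT4), a carrier of branched-chain amino acids, phenylalanine and methionine, was above background. It read 9.32, 9.65 and 10.34 on replicates 1, 2 and 3, with replicate 3 highest, at a distance of 5.72 ± 0.24 (SE, adjusted p = 8.4e-05, limma). Slc43a1 (LAT3), which carries the same kind of amino acids, read 3.49, 3.73 and 3.81, below the limit on every array. Slc43a3, which carries purine bases rather than amino acids, was at 3.97 ± 0.10, on the limit itself (distance -0.08, or 0.17 and not called with the limit at the 90th percentile).

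Of 19 carriers of other families listed beside them, 6 were above background, at a median distance of -0.55. The glutamate transporters of astrocytes Slc1a2 and Slc1a3 were at 9.57 ± 0.18 and 10.95 ± 0.25, and the serine and alanine carrier Slc1a4 at 7.25 ± 0.47. Slc1a1, the glutamate transporter known from neurons, was at 2.39 ± 0.65, and Slc1a5 (ASCT2), a glutamine exchanger of dividing cells, at 2.91 ± 0.79, and neither passed. The glycine transporter gene Slc6a9, named after its value was seen, was at 7.66 ± 0.07. The count fell to 4 without replicate 1, with the 99th percentile limit and with probe sets replaced by their median. Under these settings the share over all genes tested was 57.4%, 55.3% and 50.5%, against 58.3% in the main setting.

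**Figure D4:**
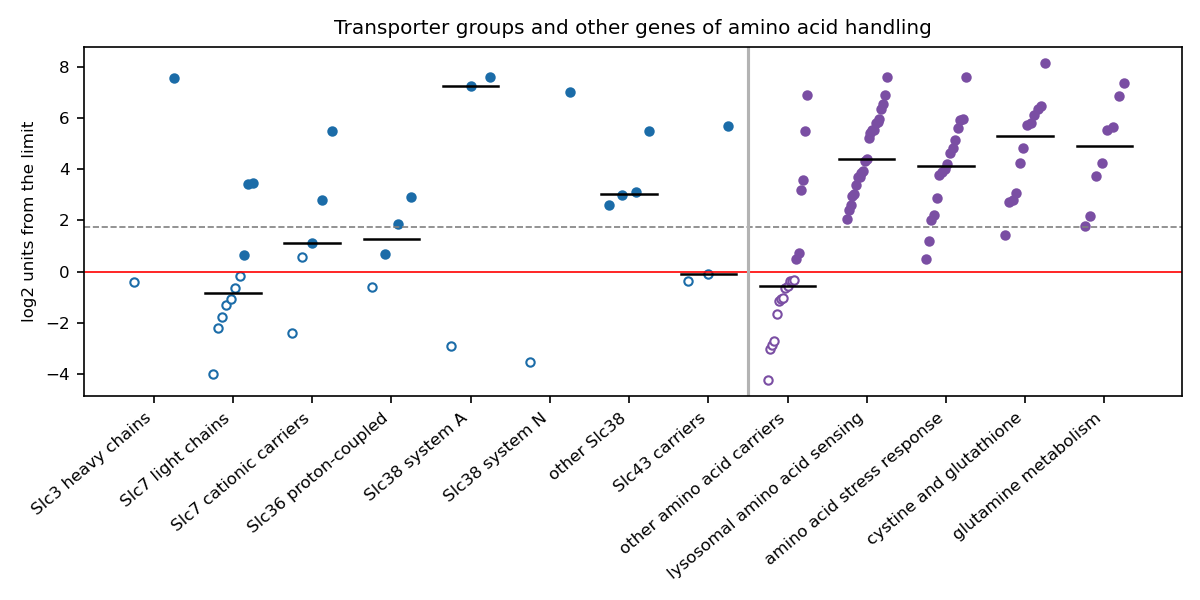
Distance from the background limit in log2 units (y axis) of the genes in the 8 transporter groups (blue) and of 5 lists of other genes of amino acid handling (purple), with filled circles for genes above background, a black bar at the median of groups of 3 or more, the limit in red and the median of all genes tested (1.76) as a dashed line. Every gene of the sensing, stress, cystine and glutamine lists is filled, while the light chains and the carriers of other families lie mostly below the red line.

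Across the arrays, the 18 transporter genes above background had a median SD of 0.25 log2 units, and all 10568 genes above background had 0.24. Replicate 3 was highest for 14 of the 18 and for 64.3% of all genes above background. The outcome of centring depended on its reference. After the median log2 intensity of all probe sets on each array was subtracted, the median SD was 0.28 for the transporters and 0.27 for all genes, and replicate 3 was highest for 16 of the 18 and for 79.2% of all. When the median shift of the genes above background (-0.18, 0.02 and 0.16 on replicates 1, 2 and 3) was subtracted instead, the median SD was 0.16 for the transporters and 0.18 for all genes, and replicate 3 was highest for 10 of the 18 and for 39.9% of all. Under each scale the transporters varied between arrays about as much as other genes did.

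Some genes moved more than the rest. Slc36a3, lowest on replicate 3, had the largest SD of the 18 after subtraction of this shift, 0.48, which 4.91% of all genes above background exceeded. It lay only 0.68 above the limit, and its SD as deposited was 0.32. That was below the SDs as deposited of Slc43a2, Slc38a10 and Slc7a5 (0.52, 0.51 and 0.49). Slc43a2, Slc38a10 and Slc7a5 were higher on replicate 3 than on replicate 1 by 1.02, 1.01 and 0.97 log2 units, and after subtraction of the array shifts they still lay 0.40, 0.35 and 0.34 above their own mean on replicate 3. Of all genes above background, 13.1%, 16.05% and 18.6% had a larger SD after subtraction than Slc43a2, Slc38a10 and Slc7a5 did. For Slc38a7, lowest on replicate 2, the share was 16.9%. At the other end, Slc3a2, Slc7a1, Slc38a1, Slc38a2 and Slc7a6 had SDs of 0.07, 0.07, 0.06, 0.07 and 0.03 after subtraction, on their brightest probe sets. The second probe set of Slc38a1 had an SD of 0.65 as deposited. With 1 array per sample, a difference between samples and a difference between arrays cannot be told apart.

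Probe sets of the same gene did not always rank the arrays alike. Of the 65 probe sets 37 were above background, and 52.2% of all probe sets with 1 gene were. Among the 16 genes with several probe sets, all passed in 5, none in 5, and some but not all in 6 (Slc7a1, Slc7a2, Slc7a4, Slc38a6, Slc38a10 and Slc43a2). The brighter probe set of Slc38a1 read highest on replicate 3, at 11.89, whereas its second read 10.33, 10.52 and 9.31, lowest on replicate 3. The difference between them therefore ranged over 1.48 log2 units between arrays, and 17.3% of the 4733 genes with at least 2 probe sets above background had a larger range. In Slc38a9 the dimmest probe set read 5.43, 4.82 and 4.38, and another read 4.58, 5.24 and 5.24. Their difference ranged over 1.71 log2 units, with a larger range in 11.5% of these genes, and both lay within 1 log2 unit of the limit.

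In Slc38a10 the disagreement was wider. The second-brightest probe set read 9.11, 9.22 and 10.14, highest on replicate 3, and the fourth-brightest read 6.57, 6.48 and 5.15, lowest on replicate 3. Their difference ranged over 2.45 log2 units, with a larger range in 2.62% of the genes compared. In Slc43a2 both probe sets above background were highest on replicate 3, and the third read 4.52, 4.52 and 1.98. The part of the transcript that each probe set reads is not given in the sources used here, and its role in these differences was not tested.

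**Figure D5:**
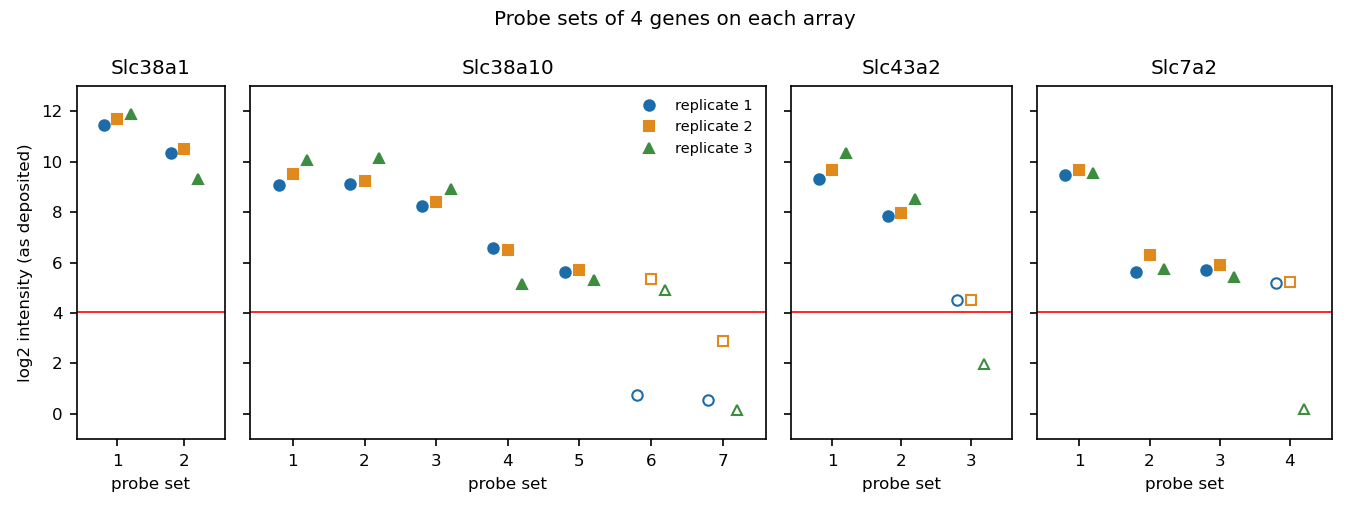
Log2 intensity (y axis) of each probe set (x axis, from the brightest) of Slc38a1, Slc38a10, Slc43a2 and Slc7a2 on replicates 1, 2 and 3, with filled symbols for probe sets above background and a red line at the mean limit. On replicate 3 the second probe set of Slc38a1, the fourth of Slc38a10, the third of Slc43a2 and the fourth of Slc7a2 read lowest, while the brightest of Slc38a1, Slc38a10 and Slc43a2 read highest.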

How the data were processed

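Values were the probe-set intensities that the authors deposited for 3 one-colour arrays, on a linear scale from 0.0563 to 12521. GCOS 1.4 is named per the submitters' processing notes; its settings, scaling target and genome build are not stated in those sources. No value was shared between arrays. Of 45101 probe sets, 34958 had 1 gene in the platform annotation, 932 several and 9160, besides control probe sets, none. All 33 transporter symbols matched RefSeq by Entrez identifier. Log2 was taken with no pseudocount, and each gene took its brightest probe set. Distances from the limit were tested with limma 3.58.1 in R 4.3.3 (lmFit and eBayes on 3 arrays, one-sided, Benjamini-Hochberg over all genes). The fit was tested on simulated data. Probe sets went through a separate fit of the same kind. The number of arrays limits the precision, and array images and saturation were not examined. Array values are given for genes fixed by role, and for others whose call changed, whose probe sets split or whose SD was over 0.5. The first 5 measured genes of each pathway list are named. Members, lists and rules were chosen with earlier results of these data known. Alternatives were the 90th and 99th percentile limits, other probe-set rules, quantile or median normalization, 16 added to intensities, a filter on dim genes, a variance trend, a rule with no test, and leaving out each replicate.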

Additional observations from a re-analysis of the deposited data

How the results depend on the processing

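The count of 18 transporter genes above background stayed between 16 and 18 under 13 alternative settings. The share over all genes tested was lowest, 50.5%, with the median of the probe sets, where 17 of the 33 transporters passed. It was highest, 67.6%, with the filter on dim genes, where 18 of 29 transporters tested passed. Of the 33 genes, 27 kept their direction and their side of the threshold in each setting that tested them. The filter on dim genes left out 4 of the 33 (Slc7a14, Slc7a15, Slc38a4 and Slc38a5), which have 12 settings. The exceptions were Slc7a8 and Slc36a3, lost with the limit at the 99th percentile and without replicate 1 or 2, Slc7a3, gained without replicate 1, and 3 genes whose distance changed sign. Slc7a4 was at -0.50 with the median of its probe sets, a setting that lowered the distance of 6 other called genes by over 1.5 times and left them called. Slc7a11 was at 0.067 with the limit at the 90th percentile and from -0.29 to 0.20 when each replicate was left out, and Slc43a3 at 0.17 with the limit at the 90th percentile, none of these called. The median SD over arrays of the genes above background, 0.25, was 0.155 after quantile normalization and 0.158 after subtraction of the median shift of all genes above background, a setting chosen after seeing the data, and 0.190 and 0.182 over all genes above background. Subtraction of each array's own median gave 0.281. The cause was not tested. Scaling an array as a whole leaves its distances from its own limit as they are. No paired analysis was possible because the samples form 1 group. With 3 arrays, calls near the limit rest on the spread: Slc7a3, at 0.55 with an SD of 0.93, was not called, and Slc7a8, at 0.66 with an SD of 0.08, was.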
